A study of Mus musculus with 11 samples.

Results

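The genes described here encode the signals through which the hypothalamus drives or restrains the pituitary. They were Trh, Crh, Sst, Ghrh, Gnrh1, Kiss1, Tac2 and Th. The members were all mouse probes of the array whose accession belongs to one of these 8 gene symbols in a list of names that sets no threshold on a measured value. They amount to 8 of 19987 genes named by accession on the array, to 9 of 39429 mouse probes and to 18 of 43020 mouse spots. Kiss1 had 2 probes and each of the other genes 1, and the Sst probe was printed in 10 spots on each array.

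Neurosecretory neurons of the paraventricular, periventricular and arcuate nuclei and of the preoptic area send axons to the median eminence, where their peptides enter the portal vessels and reach the anterior pituitary. Thyrotropin-releasing hormone (Trh), corticotropin-releasing hormone (Crh), growth hormone-releasing hormone (Ghrh) and gonadotropin-releasing hormone (Gnrh1) stimulate pituitary hormone secretion, whereas somatostatin (Sst) restrains growth hormone and dopamine, made by neurons that contain tyrosine hydroxylase (Th), restrains prolactin. Kisspeptin (Kiss1) and neurokinin B (Tac2) act upstream of the gonadotropin-releasing hormone neurons, and in the arcuate nucleus the same neurons make both.

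The samples were 6 hypothalami of male offspring of dams on a high-fat diet (HFD) and 5 of male offspring of dams on standard chow (CO, named SD in the sample titles), all C57BL/6N mice killed at postnatal day (P) 21. The dams received their diet before mating, in pregnancy and during lactation, so that the pups were exposed through the dam, and the tissue was a block of hypothalamus holding many cell types. Total RNA of a single sample was hybridized to each single-dye array, and a level is given as log2 of the processed signal relative to the 75th percentile of its array, where 0 is the percentile itself. All HFD arrays were scanned in a session 337 days away from that of the CO arrays and read with another extraction protocol, so that diet and scan session cannot be told apart in any comparison below.

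On the whole array, 65.8% of 17195 genes passed the test between HFD and CO (limma, Benjamini-Hochberg adjusted over all probes, threshold 0.05), 21.9% higher and 43.8% lower in HFD, and the median gene differed by -0.17 (log2, HFD minus CO). Arrays correlated at 0.991 to 0.997 within HFD, at 0.989 to 0.996 within CO and at 0.954 to 0.973 between the groups. Well above background were 71.8 to 77.4% of spots on the HFD arrays and 82.5 to 85.7% on the CO arrays. Markers of the hypothalamus were present in all samples, with a summed level of 49.0 to 73.2 times the 75th percentile in HFD and 43.0 to 52.1 in CO for 14 genes, of which 3 were higher, 1 lower and 10 not called. Of these, Sim1 was well above background on no CO array and Otp was so on 1 of 6 HFD arrays and all 5 CO arrays. Of 12 striatal markers 9 were lower in HFD and 3 not called, with summed levels of 16.3 to 42.0 in HFD and 23.0 to 119 in CO, and of 10 thalamic markers 8 were higher, 1 lower and 1 not called, with 25.7 to 36.5 in HFD and 14.7 to 26.0 in CO. Of 10 general neuronal markers 7 were higher and 3 not called, with 179 to 200.1 in HFD and 137 to 152 in CO. Of 10 oligodendrocyte markers 7 were lower, none higher and 3 not called, with 303 to 371 in HFD and 352 to 397 in CO, and the mean of their log2 levels was lower in every HFD sample than in every CO sample. The means of the neuronal and of the thalamic markers were higher in every HFD sample than in every CO sample. Of all single genes, 46.6% did not overlap between the groups. Of 12 microglial markers 6 were lower, 3 higher and 3 not called, with 75.6 to 88.3 in HFD and 67.9 to 75.9 in CO. The mean of their log2 deviations from all samples lay mostly lower in HFD, at -0.25 to 0.087 against 0.027 to 0.15 in CO. Sum and mean thus differed in direction. In whole tissue, fewer cells of a type and less RNA per cell cannot be told apart.

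Promoter sequences of 6 members were found in a RefSeq table of the build GRCm38.p6, each from 250 bases before to 50 bases after a start listed there, for a total of 7 windows since Ghrh has 2 listed starts. For Sst, Kiss1 and Ghrh these starts lie inside the annotated locus and not at its outer end. Of these, 3 are shown, those of Sst and Tac2 because these genes passed the test and that of Th because it shared a motif with Sst. They are written 5′ to 3′ on the strand of the gene, and capitals mark the octamer TGACGTCA, the cAMP response element (CRE) first described in the somatostatin gene.
Sst promoter, chr16:23890795-23891094, minus strand: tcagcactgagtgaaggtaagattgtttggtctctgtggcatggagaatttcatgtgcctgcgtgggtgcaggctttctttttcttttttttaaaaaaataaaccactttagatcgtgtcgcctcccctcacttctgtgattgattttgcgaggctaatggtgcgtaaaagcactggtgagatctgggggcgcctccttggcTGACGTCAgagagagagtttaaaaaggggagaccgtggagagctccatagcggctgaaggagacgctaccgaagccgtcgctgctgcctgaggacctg
Th promoter, chr7:142899946-142900245, minus strand: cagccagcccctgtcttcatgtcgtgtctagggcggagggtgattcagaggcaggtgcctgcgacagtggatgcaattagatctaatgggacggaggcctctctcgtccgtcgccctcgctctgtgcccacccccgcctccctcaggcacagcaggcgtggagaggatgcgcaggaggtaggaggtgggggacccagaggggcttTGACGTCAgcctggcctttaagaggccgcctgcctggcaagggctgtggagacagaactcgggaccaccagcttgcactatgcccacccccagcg
Tac2 promoter, chr10:127724228-127724527, plus strand: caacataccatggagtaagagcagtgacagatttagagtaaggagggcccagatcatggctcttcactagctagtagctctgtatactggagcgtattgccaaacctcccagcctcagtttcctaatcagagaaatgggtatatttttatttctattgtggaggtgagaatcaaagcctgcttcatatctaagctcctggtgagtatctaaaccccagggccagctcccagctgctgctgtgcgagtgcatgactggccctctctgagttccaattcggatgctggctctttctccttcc
The octamer, which reads the same on both strands, was found in the windows of 2 members, Sst and Th, beginning 48 bases before the listed start of Sst and 45 bases before that of Th. Among all 32851 promoter windows of this length, 1.79% held it. The half-site TGACG, on either strand and contained in the octamer, was found in the windows of 5 members and in 20.8% of all windows, and the Tac2 window held none. The letters TATAAA, on either strand, were found in 1 of 2 Ghrh windows and in 13.6% of all windows.

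Of the 8 members, 7 were well above background on all 11 arrays and were tested, and Gnrh1 was not. By the brightest probe of each gene, Tac2 was higher and Sst lower in HFD, and 5 members did not pass the test, compared with 65.8% of all genes that passed. The median difference of the 7 genes was 0.047, against -0.17 over all genes tested. The spread between samples of a group was wide for these genes. Their median residual SD was 0.27 on the log2 scale, against 0.16 over all genes, and on average they stood at percentile 76.2 of this spread.

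**Figure D1:**
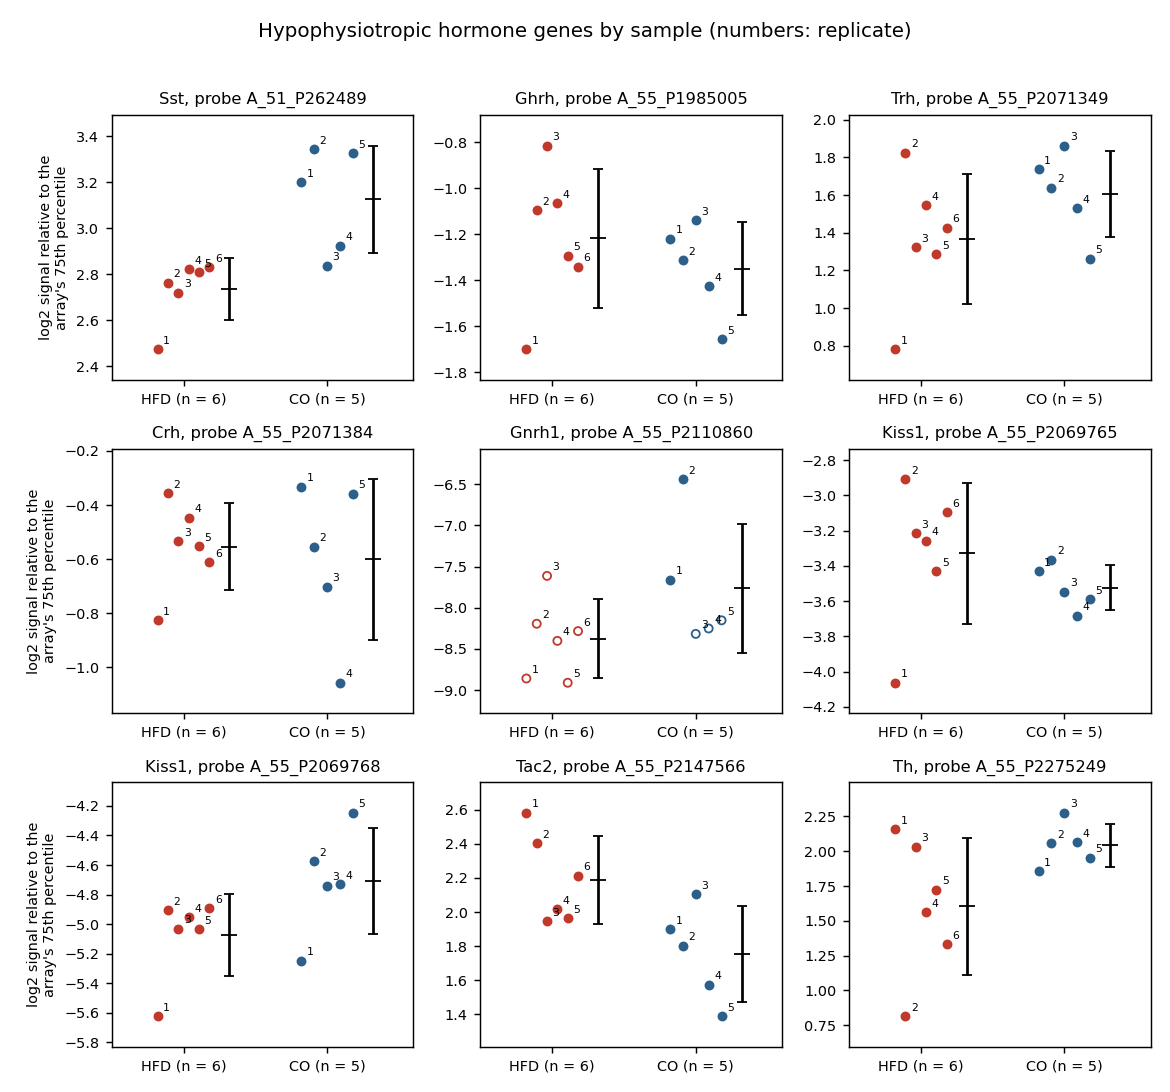
Level of each probe of the hormone genes (y axis, log2 of the processed signal relative to the array's 75th percentile) in 6 HFD and 5 CO samples (x axis), with replicate numbers beside the points, mean ± SD as bars and open circles for values not well above background. All 6 HFD values of Sst lie below the CO values, while HFD replicate 1 is the lowest sample of its group for Sst, Ghrh, Trh, Crh and both Kiss1 probes.

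Of the opposing regulators of growth hormone, the inhibitor Sst was lower in HFD and the stimulator Ghrh did not pass the test. The level of Sst was between 2.47 and 2.83 in HFD (median 2.79, n = 6), against 3.20, 3.34, 2.84, 2.92 and 3.33 in CO replicates 1 to 5. HFD replicate 1 lay well below the other HFD samples, and CO replicates 3 and 4 lay close to the HFD samples. The groups did not overlap, as was true of 46.6% of all genes (30.5% with every HFD sample below every CO sample), but the lowest CO sample exceeded the highest HFD sample by 0.0067 only, less than the SD of 0.063 between the 10 spots of the probe on an array (median of 11 arrays). Sst averaged 2.74 ± 0.13 in HFD (SD, n = 6) and 3.13 ± 0.23 in CO (SD, n = 5), a difference of -0.39 (SE 0.11, 95% interval -0.63 to -0.15, 1.31-fold lower, limma adjusted p = 0.0079). The exact permutation test over the samples gave p = 0.00216, the smallest that 462 splits allow. Relative to the median of all genes, at -0.17, the Sst difference was -0.22, and it stood at percentile 32.4 of the differences of all genes tested. Before scaling, the processed signals of Sst overlapped, with 18154 to 23438 units in HFD (median 22822) and 17179 to 26009 in CO (median 22234).

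Within the groups, the Sst values moved with the striatal markers and against the thalamic markers. CO replicates 1, 2 and 5, with the high Sst levels, had summed striatal levels of 95.7, 119 and 80.4, while CO replicates 3 and 4 had 40.5 and 23.0. In deviations from the group means, Sst and the mean of the striatal markers correlated with r = 0.86 (permutation within groups, p = 0.00518, adjusted p = 0.0575) and rho = 0.91 (p = 0.00115, adjusted p = 0.0241) over 11 samples, adjusted over 42 relations of 7 members with 6 tissue marker lists, of which 15 had an unadjusted p under 0.05 for r. Without the 2 samples farthest from the median of the markers, r was 0.83, and among the 6 HFD samples alone it was 0.84 (exact permutation p = 0.0111). With the mean of the thalamic markers, r was -0.85 (p = 0.00642, adjusted p = 0.0575) and rho was -0.63 (p = 0.0638, adjusted p = 0.197), and r was -0.70 without the 2 samples farthest from the median. With the mean of the striatal markers as a covariate, a setting chosen after the values were seen, Sst differed by -0.12 between HFD and CO (limma adjusted p = 0.33). Most striatal markers were themselves lower in HFD, so this covariate cannot be told apart from diet or scan session. The part of striatal tissue in the Sst difference was not tested. Somatostatin is made by interneurons of the striatum and cortex as well as by periventricular neurons.

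Ghrh, made by arcuate neurons, had levels of -1.70 to -0.81 in HFD (median -1.19), against -1.22, -1.31, -1.14, -1.43 and -1.66 in CO replicates 1 to 5. The highest 3 HFD samples exceeded every CO sample, whereas HFD replicate 1 lay below all of them. The difference was 0.13 (SE 0.15, 95% interval -0.19 to 0.46, limma adjusted p = 0.444).

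Neither of the hypothalamic activators of the thyroid and adrenal axes passed the test. Trh levels ranged between 0.78 and 1.83 in HFD (median 1.37), against 1.74, 1.64, 1.86, 1.53 and 1.26 in CO replicates 1 to 5. HFD replicate 1 lay below all CO samples and the other 5 lay within the CO range. Trh differed by -0.24 (SE 0.17, 95% interval -0.61 to 0.13, limma adjusted p = 0.221). Crh levels were -0.82 to -0.36 in HFD (median -0.54), against -0.33, -0.55, -0.70, -1.06 and -0.36 in CO replicates 1 to 5. All 6 HFD values of Crh were within the CO range. The difference of Crh was 0.047 (SE 0.13, 95% interval -0.24 to 0.34, limma adjusted p = 0.768), and its sign turned when CO replicate 4, the lowest sample, was left out (-0.067).

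Of the genes of the gonadotropic axis, Tac2 was higher in HFD, Kiss1 gave no call and Gnrh1 was at the limit of detection. Tac2 levels were 1.95 to 2.58 in HFD (median 2.12), against 1.90, 1.80, 2.10, 1.57 and 1.39 in CO replicates 1 to 5. All 6 HFD samples exceeded the CO median and 3 exceeded every CO sample, while CO replicate 3 lay inside the HFD range, so that the groups overlapped. Tac2 averaged 2.19 ± 0.26 in HFD (SD, n = 6) and 1.75 ± 0.28 in CO (SD, n = 5), a difference of 0.43 (SE 0.15, 95% interval 0.10 to 0.77, 1.35-fold, limma adjusted p = 0.0243, exact permutation p = 0.0281). The call rested on few samples. Without HFD replicate 2 the difference was 0.39 (adjusted p = 0.0513), without CO replicate 4 it was 0.39 (adjusted p = 0.0574) and without CO replicate 5 it was 0.34 (adjusted p = 0.0629). When arrays were scaled to their spike-in controls instead of the 75th percentile, the median of all genes moved by -0.67 and Tac2 turned to -0.24 (adjusted p = 0.176). Tac2 remained above that median of all genes, by 0.61 under either scaling. In deviations from the group means, Tac2 and the mean of the thalamic markers correlated with r = 0.66 over 11 samples (permutation within groups, adjusted p = 0.119). Without the 2 samples farthest from the median r was 0.32. With cortex and hippocampus markers r was -0.69 (permutation within groups, adjusted p = 0.0792), and -0.33 without the 2 farthest samples. The part of other tissue in the Tac2 difference was not tested.

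The 2 probes of Kiss1 differed in sign. The brighter probe, A_55_P2069765, had levels of -4.06 to -2.91 in HFD (median -3.24), against -3.43, -3.36, -3.55, -3.68 and -3.59 in CO replicates 1 to 5. Of the HFD samples, 4 exceeded every CO sample and replicate 1 lay below all of them. The difference was 0.19 (SE 0.17, 95% interval -0.18 to 0.57, limma adjusted p = 0.336), and without HFD replicate 1 it was 0.34 (adjusted p = 0.0132). The dimmer probe, A_55_P2069768, had levels of -5.62 to -4.89 in HFD (median -4.99), against -5.25, -4.58, -4.74, -4.73 and -4.25 in CO replicates 1 to 5. HFD replicate 1 lay below all CO samples and the other 5 lay inside the CO range. The difference of this probe was -0.36 (SE 0.18, 95% interval -0.75 to 0.024, limma adjusted p = 0.088), and without CO replicate 1 it was -0.50 (adjusted p = 0.016). No direction can therefore be given for Kiss1.

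Gnrh1, whose neurons are few and scattered in the preoptic area, was well above background on 0 of 6 HFD arrays and on 2 of 5 CO arrays, replicates 1 and 2. Its level was -8.91 to -7.61 in HFD (median -8.34), against -7.66, -6.44, -8.32, -8.25 and -8.15 in CO replicates 1 to 5, with processed signals of 6.60 to 16.0 units in HFD and 7.53 to 29.5 in CO. The groups overlapped and the exact permutation test gave p = 0.117 (difference -0.61, two-sided). According to the methods of the paper, the tissue block started behind the optic chiasm.

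Th, the rate-limiting enzyme of dopamine synthesis, gave the widest range of the tested members in HFD. Its levels were 0.81 to 2.16 in HFD (median 1.64), a 2.54-fold range of signal, against 1.86, 2.06, 2.28, 2.06 and 1.95 in CO replicates 1 to 5, a 1.34-fold range. Of the HFD samples, 4 lay below every CO sample, while replicates 1 and 3 lay within the CO range. Th differed by -0.44 (SE 0.21, 95% interval -0.90 to 0.023, limma adjusted p = 0.0848, exact permutation p = 0.0823). Without HFD replicate 1 the difference was -0.55 (adjusted p = 0.0293), and without HFD replicate 3 it was -0.52 (adjusted p = 0.0485). Without HFD replicate 2, the lowest sample, it shrank to -0.28 (adjusted p = 0.135).

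The Th values moved with genes of midbrain dopamine neurons, which lie caudal to the hypothalamus. Of 15379 genes well above background on all arrays, the pair whose deviations from the group means were most like those of Th were Slc6a3, the dopamine transporter (r = 0.96 over 11 samples), and Foxa2, a transcription factor of midbrain dopamine neurons (r = 0.95). These correlations are descriptions, and all points share the scaling of their array. The 9 midbrain dopamine markers, which include both genes, had summed levels of 24.2, 11.3, 19.5, 16.0, 16.7 and 13.8 in HFD replicates 1 to 6, against 14.2, 15.8, 16.9, 17.8 and 15.8 in CO replicates 1 to 5. In HFD the order of the samples by these markers was the order by Th. In deviations from the group means, Th and the mean of the markers correlated with r = 0.95 and rho = 0.95 over 11 samples, and r was 0.88 without HFD replicates 1 and 2, the farthest samples. Among the 6 HFD samples alone r was 0.98. These values are given without a p, since the mean includes the pair of genes most like Th. Between the groups, 2 of the 9 markers were lower, none was higher and 7 were not called, with Slc6a3 at 0.11 (limma adjusted p = 0.708). With their mean as a covariate, chosen after the values were seen, Th differed by -0.20. This value too is given without a p, since the mean includes the pair of genes most like Th. The share of midbrain tissue in the Th signal was not measured directly.

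**Figure D2:**
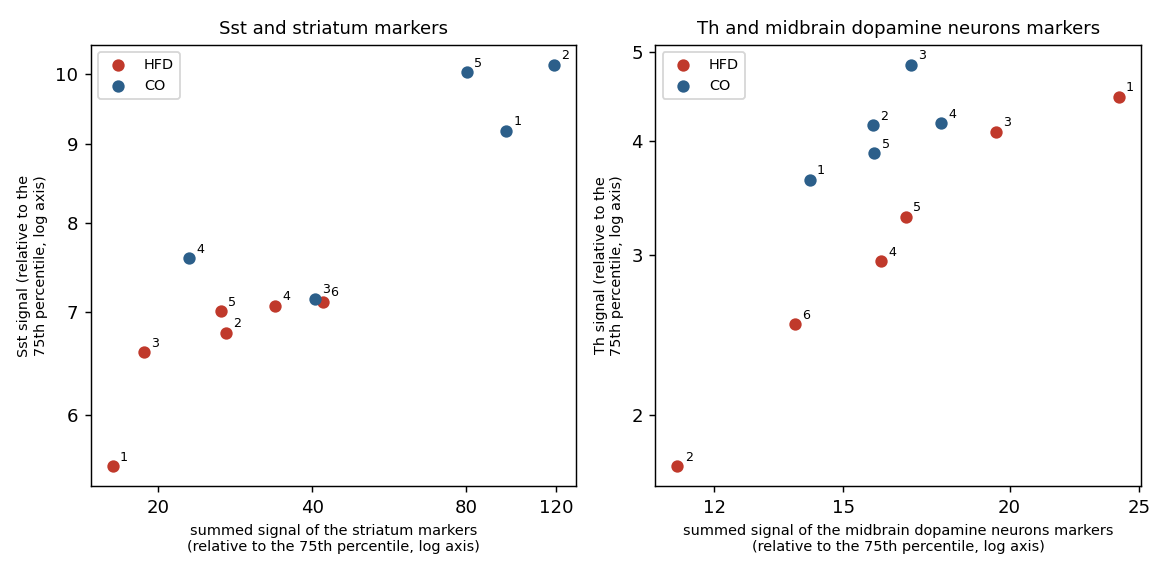
Left, signal of Sst (y axis) against the summed signal of the striatal markers (x axis). Right, signal of Th against the summed signal of the midbrain dopamine markers, each point 1 sample with its replicate number, all axes logarithmic and relative to the array's 75th percentile. CO replicates 1, 2 and 5 are high in both Sst and striatal markers, and the 6 HFD samples are in the same order for Th and the midbrain markers, between replicate 2 with 11.3 and replicate 1 with 24.2.

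HFD replicate 1 differed from the other HFD samples in most members. Relative to the HFD mean it deviated by -0.26 for Sst, -0.48 for Ghrh, -0.58 for Trh, -0.27 for Crh and -0.73 for Kiss1 (brighter probe), and by 0.39 for Tac2 and 0.56 for Th. It was thus the lowest HFD sample for the 5 genes named first and the highest for Tac2 and Th. Its hypothalamic markers summed to 49.0, the lowest of the HFD samples, and its striatal markers to 16.3, the lowest of all 11 samples. Its thalamic markers (36.5), midbrain dopamine markers (24.2) and pituitary markers (0.64) were the highest of the HFD samples. Without this sample, 2 members were higher and 2 lower, in place of 1 and 1. With all samples 65.8% of all genes were called, and this share was not computed without HFD replicate 1.

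**Figure D3:**
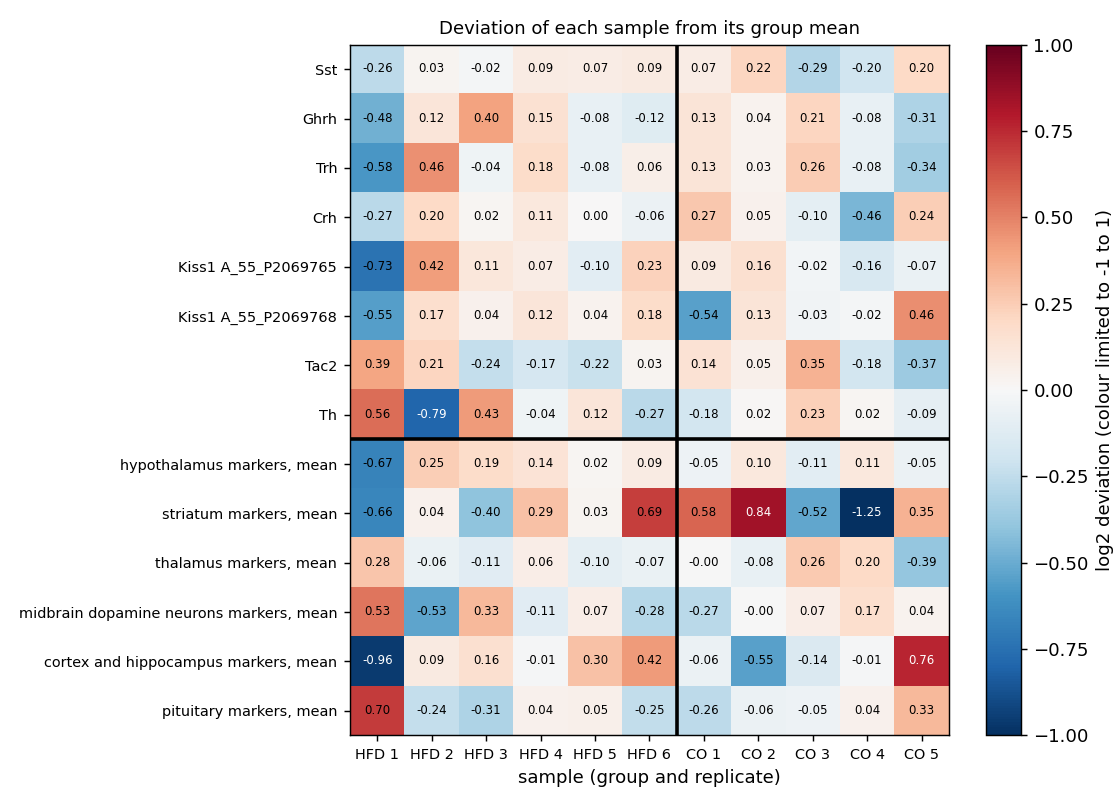
Deviation of each sample (columns, HFD left and CO right) from the mean of its group on the log2 scale, for the tested probes of the hormone genes and for the mean of 6 lists of tissue markers (rows), with colours limited to -1 to 1. HFD replicate 1 is low for Sst, Ghrh, Trh, Crh and Kiss1 and high for Tac2, Th and the thalamic, midbrain and pituitary markers.

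Pairs of members were compared by their deviations from the group means. None of 21 pairs passed after adjustment, and 6 had an unadjusted p under the threshold of 0.05. The strongest was Trh with Kiss1, with r = 0.84 over 11 samples (permutation within groups, p = 0.00697, adjusted p = 0.127) and rho = 0.68 (p = 0.0369). Without the 2 samples farthest from the median of Trh, r was 0.39, so that the relation rested largely on those samples. Leaving out HFD replicate 1 or HFD replicate 3 gave 1 pair each. Of the other members, the genes most like them in deviations were Hspb8 (r = 0.95) and Ninl (0.95) for Trh, Ftl1 (0.93) and H2-Ke6 (0.92) for Crh, and Slc24a4 (0.98) and Ttc22 (0.97) for Sst. They were C1s1 (0.93) and Kif27 (0.92) for Ghrh, Moxd1 (0.96) and Prok2 (0.96) for Kiss1, and Tlnrd1 (0.97) and Gpr153 (0.94) for Tac2. These were the top 2 of 15379 genes for each member and are given as a description.

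The receptors of these signals were called about as often as all genes. Of 18 cognate receptor genes, 17 were tested, 10 were lower, 1 was higher and 6 were not called (64.7% called, against 65.8% of all genes, of which 43.8% were lower), with a median difference of -0.61 against -0.17 over all genes. With normexp background correction 3 were lower (median -0.35), and the Rank Product test called 1 lower. Over all genes these settings called 35.4% and 3.3%. The higher gene was Trhr, the receptor of thyrotropin-releasing hormone, at -1.94 ± 0.074 in HFD (SD, n = 6) and -3.78 ± 0.53 in CO (SD, n = 5), a difference of 1.83 (SE 0.20, 3.57-fold, limma adjusted p = 1.08e-05). Trhr2, its second receptor in the mouse, was lower (-0.62, adjusted p = 0.000721).

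Of the somatostatin receptors, Sstr2 (-1.08, limma adjusted p = 1.93e-06), Sstr4 (-1.17, adjusted p = 0.000159) and Sstr1 (-0.22, adjusted p = 0.0308) were lower, and a second Sstr1 probe gave -2.01. Sstr3 (-0.23, 95% interval -0.47 to 0.0036) and Sstr5 (-0.25, 95% interval -0.80 to 0.30) did not pass. Ghrhr, the receptor of growth hormone-releasing hormone, was well above background on 0 of 6 HFD arrays and on all 5 CO arrays. It passed the filter of the test only through the CO arrays, so it is counted as lower but given without a p. Its signal in HFD was at least 6.11-fold lower. This bound sets the CO mean against, on each HFD array, the higher of the probe's own signal and the dimmest signal among probes well above background. Crhr1 was lower (-0.61, adjusted p = 0.000753), whereas Crhr2 (-0.43, 95% interval -0.92 to 0.058) did not pass.

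Kiss1r was lower by a small amount (-0.31, SE 0.12, limma adjusted p = 0.0367). Tacr3, the receptor of neurokinin B, differed by -0.0060 with a 95% interval of -0.22 to 0.20. Gnrhr exceeded background clearly on none of the 11 arrays. Of the dopamine receptors, Drd2 (-1.25, adjusted p = 0.000829), Drd3 (-1.34, adjusted p = 0.000337) and Drd4 (-0.67, adjusted p = 0.0112) were lower, while Drd1 (-0.98, 95% interval -2.11 to 0.15) and Drd5 (0.17, 95% interval -0.00023 to 0.34) did not pass. Drd1 and Drd2 are also among the 12 striatal markers. With the mean of the striatal markers as a covariate the median of the receptors was -0.24. Drd1 and Drd2 are part of that mean and so were adjusted for themselves, and the covariate cannot be told apart from diet or scan session. The part of striatal tissue in the receptor differences was not tested.

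**Figure D4:**
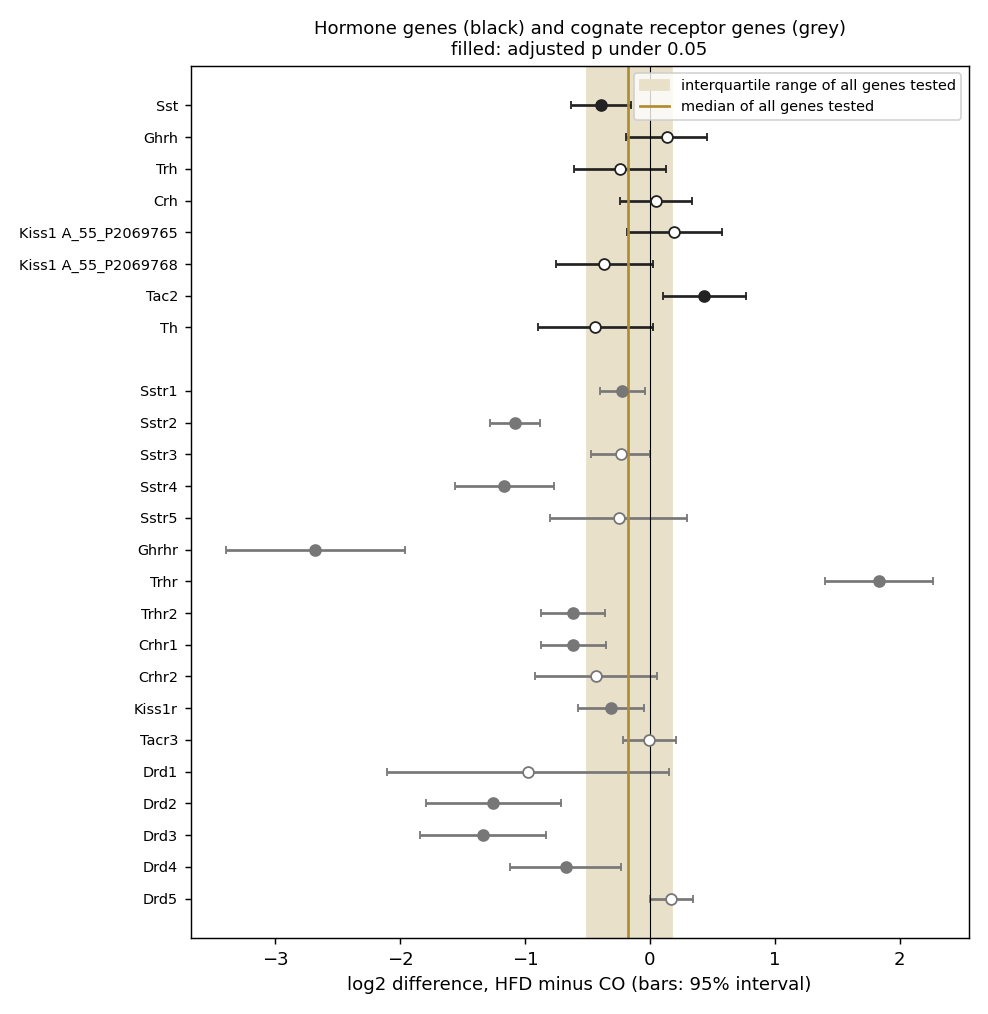
Differences between HFD and CO on the log2 scale (x axis, HFD minus CO, bars are 95% intervals) for the tested probes of the hormone genes (black) and their receptor genes (grey), filled where the adjusted p was under 0.05, with the median and the interquartile range of all genes tested. Sst at -0.39 and Tac2 at 0.43, which turned to -0.24 under spike-in scaling, are the filled hormone genes, whereas 11 of 17 receptors are filled. Of these, Ghrhr is drawn at its measured difference although it was below the limit in HFD and passed the filter only through CO.

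The 5 further gene lists around these signals held genes that moved in both directions. Over all 6 lists, 93 genes were tested, 29 were higher, 28 lower and 36 not called (61.3% called, against 65.8% of all genes), with a median difference of 0.0059. Of 11 genes of dopamine synthesis and transport other than Th, 3 were higher, 2 lower and 6 not called (median 0.067). Spr, which makes the cofactor of Th, was lower (-1.50, limma adjusted p = 1.94e-05), and Maoa, which degrades monoamines, was higher (0.68, adjusted p = 6.23e-05).

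Of 17 receptors and enzymes of the hormones that feed back on these neurons, 11 were higher, 5 lower and 1 not called (94.1% called, against 65.8% of all genes, 21.9% higher and 43.8% lower), with a median of 0.56. The prolactin receptor Prlr was higher (2.04, limma adjusted p = 5.54e-07), but a second probe gave -0.31. The estrogen receptor Esr2 was higher (1.02, adjusted p = 2.59e-06). The brightest probe of the leptin receptor Lepr was lower (-1.38, adjusted p = 6.43e-06) while 2 of its other probes gave 0.87 and 1.12 and the third -0.13, so that no single direction can be given for Lepr.

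Of 14 genes of precursor processing and secretory granules, 5 were higher, 3 lower and 6 not called (median 0.11). Cadps2, which primes granules for release, was higher (0.51, limma adjusted p = 0.000494), as was Pam, which amidates peptides such as thyrotropin-releasing hormone (0.36, adjusted p = 0.00086), whereas the granule protein Vgf was lower (-0.31, adjusted p = 0.000871). Of 17 related peptides and binding proteins, 16 were tested, 5 were higher, 5 lower and 6 not called (median -0.18). The peptide genes Npff (-0.50, adjusted p = 0.000184), Cort, a relative of Sst (-1.03, adjusted p = 0.000291), and Pdyn (-1.39, adjusted p = 0.000467) were lower. Pdyn encodes dynorphin, which arcuate neurons make together with kisspeptin and neurokinin B and which the striatum makes as well.

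Of 18 transcription factors of these neurons, 4 were higher, 3 lower and 11 not called (median 0.014). Sim1, which is required for paraventricular and supraoptic neurons, was well above background on all 6 HFD arrays and on no CO array. It passed the filter of the test only through the HFD arrays, so it is counted as higher but given without a p. Its signal was at least 7.99-fold higher in HFD. Its partner Arnt2 was lower (-0.77, adjusted p = 1.97e-06). The brightest probe of Creb1, which binds the octamer shown above, was higher (1.48, adjusted p = 6.04e-06), but a second probe gave -0.064.

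Scaling to the spike-in probes lowered all members by the same amount, since these probes were 0.67 higher in HFD relative to the 75th percentile (8 probes, exact permutation p = 0.00216). Scaled to these, 6 members were lower and none higher, while 88.8% of all 17195 genes were called, 946 higher and 14323 lower. Of the genes called on the whole array 6.2% were higher in place of 33.4%, and the median of all genes was -0.84. Normexp moved the members in both directions, with Ghrh turning to -0.14, and left neither Sst (-0.31, limma adjusted p = 0.0531) nor Tac2 (0.56, adjusted p = 0.0626) past the threshold, and 35.4% of all genes were called.

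**Figure D5:**
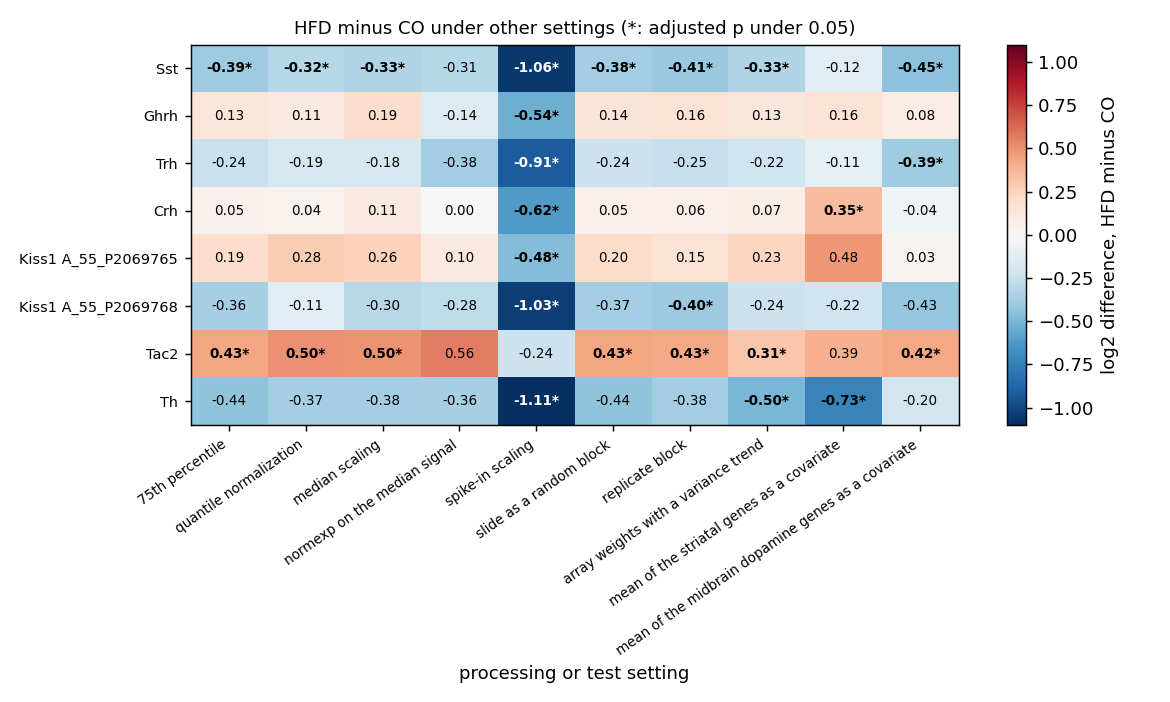
Difference between HFD and CO on the log2 scale (numbers and colours) for the tested probes of the hormone genes (rows) under the scaling to the 75th percentile and other settings (columns), with asterisks where the adjusted p was under 0.05. Sst is negative in all columns, with -0.12 when the striatal markers are a covariate, and Tac2 is positive in all but spike-in scaling, where it is -0.24.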

How the data were processed

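Hypothalamic RNA of 6 HFD and 5 CO samples was measured on Agilent single-dye mouse arrays. The authors deposited scanner output, whose processed signal is an intensity on a linear scale from which Feature Extraction had already subtracted the background (version 10.8 in the submitters' processing notes, 10.7.3.1 per the file headers). The sources used here do not give the authors' scaling between arrays. The labels do not say whether samples came from separate litters, so p-values measure only the spread between these samples. The titles of CO replicates 1 to 3 share a leading number and those of CO replicates 4 and 5 another, whose meaning is not given.

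From these values, log2 of the signal minus the array's 75th percentile was computed. Control and outlier spots were left out (1 Sst spot each in HFD replicates 4 and 5), and replicate spots were averaged. The test was limited to probes that exceeded background clearly on 5 or more of the 11 arrays and used limma 3.58.1 in R 4.3.3 (two-sided, Benjamini-Hochberg over 31800 probes); each gene was read from the probe with the highest mean level. On 31711 simulated probes, of which 200 were changed, 40% of true log2 differences of 0.5 and 84% of those of 1 were called. In the data 65.8% of genes were called, which loosens the Benjamini-Hochberg cutoff, so these shares do not carry over to the test above. Probes were named through RefSeq accessions in a table of GRCm38.p6. Correlations used 100000 permutations within groups. Number of arrays limits the precision.

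Genes named are all members and cognate receptors, in each other list up to 3 genes, those of smallest adjusted p, and the 2 genes most like each member; 1 gene under this rule is not reported here. The members and lists were chosen with earlier results of these data known. Alternatives covered scaling, background, filters, blocks, weights, other tests and leaving out each array. Normexp was run on the median signal, and the covariates were added after seeing the data.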

Additional observations from a re-analysis of the deposited data

Results flagged for a closer look

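Within the groups, each probe of the hormone genes was examined for a sample far from the others, and 2 of 18 groups of samples held one, where chance gives about 1 in 20. For Sst, HFD replicate 1 had a level of 2.47 and the other 5 HFD samples 2.72 to 2.83. For the dimmer Kiss1 probe, A_55_P2069768, HFD replicate 1 had -5.62 and the other 5 HFD samples -5.03 to -4.89. This sample also had the lowest hypothalamic markers of its group. Without it, the Sst difference was -0.34 (limma adjusted p = 0.0153) and that of the Kiss1 probe -0.25 (adjusted p = 0.163).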

How the results depend on the processing

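All values are HFD minus CO on the log2 scale. Tested with limma unless another test is named, Sst kept its sign under all 26 alternatives and stayed past the threshold in 23, and Tac2 kept its sign in 25 and its call in 19. With spike-in scaling, which moved the median of all genes by -0.67, Trh was -0.91, Crh -0.62, Ghrh -0.54, the Kiss1 probes -0.48 and -1.03, Tac2 -0.24, Th -1.11 and Gnrh1 -1.28, and 0 members were higher and 6 lower, 7 genes of the 6 pathway lists higher and 71 lower (median -0.66) and 16 receptors lower (median -1.28). Under spike-in scaling 88.8% of all genes were called, 946 higher and 14323 lower. With normexp, Ghrh was -0.14, Sst -0.31 and Tac2 0.56, and 0 members were higher and 0 lower, 19 pathway genes higher and 14 lower and 3 receptors lower (median -0.35). Normexp called 35.4% of all genes. The Rank Product test, with a proportion of false positives under 0.001, called neither Sst (-0.39) nor Tac2 (0.43), so 0 members were higher and 0 lower, with 3 pathway genes higher and 1 lower and 1 receptor lower, and it called 3.3% of all genes. Among the 7 members tested, limma gave 2 with an unadjusted p under 0.05. Quantile normalization turned Gnrh1 to 0.13, and averaging all probes of each gene turned Kiss1 to -0.085. With the striatal markers as a covariate, Crh was 0.35 and Th -0.73, both past the threshold, while Sst -0.12 and Tac2 0.39 were not. In this setting 2 receptors were higher (median -0.24), and the receptors Drd1 and Drd2 were part of the covariate. With the midbrain markers as a covariate, Trh was -0.39 and past the threshold, Crh -0.044, and 2 members were lower. Array weights with a variance trend brought Th past it (-0.50), with 2 members lower and 2 receptors higher, and 2 receptors were also higher with median scaling and with no filter.

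Replicate numbers did not pair the samples, since the correlations of same-numbered deviations were 0.22, -0.020, -0.087, 0.016 and 0.16. With the replicate block the dimmer Kiss1 probe was -0.40 (adjusted p = 0.0128), 60.6% of all genes were called, and the other members kept their calls. Neither slide (correlation -0.036) nor the leading number in the CO titles (correlation 0.018) as a random block changed a call among the members. No slide held arrays of both groups, so a block by slide cannot separate slide from diet. The leading number was shared among CO samples only, so its block bears on the spread within CO alone.

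Leaving out each array gave -0.33 to -0.12 for Trh, -0.067 to 0.11 for Crh, -0.46 to -0.34 for Sst, 0.052 to 0.23 for Ghrh, 0.11 to 0.34 and -0.50 to -0.25 for the Kiss1 probes, 0.34 to 0.52 for Tac2, -0.55 to -0.28 for Th and -0.77 to -0.28 for Gnrh1. Members higher were 0 to 2 and lower 1 to 2, pathway genes higher 27 to 30 and lower 25 to 29 (median -0.016 to 0.017), receptors higher 1 to 2 and lower 8 to 11 (median -0.66 to -0.53), and pairs called 0 to 1. Gnrh1 had an exact permutation p of 0.0397 without HFD replicate 3. The cause of these shifts was not tested. Normexp on the mean signal was not run, since that column was not used here. Low signal limits Gnrh1, Gnrhr, Ghrhr in HFD and Sim1 in CO.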
